A study of Mus musculus with 9 samples.

Results

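The common gamma chain family in mouse blood was followed as 10 genes out of the 20926 in the expression table: the receptor chain genes Il2rg, Il7r, Il2rb, Il4ra, Il21r, Il15ra and Il9r, the kinase gene Jak3, and the ligand genes Il15 and Il21. The members were chosen by their symbols, as receptor chains, ligands and the kinase of this system, and that choice was made with the values of these same libraries in view. No single value or threshold fixed the list, so every count and p below describes these libraries and is not independent support for the list.

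Blood RNA of 9 male DBA/1 mice, labelled as blood leukocyte, was sequenced in 3 groups of 3 mice, at a labelled age of 7 weeks. In the paper, 7 weeks was the age at grouping, before the immunizations and the irradiation, so the mice were older at sampling. The Ctrl group was neither arthritic nor irradiated. The CIA group had collagen-induced arthritis, in which immunization with collagen brings on joint inflammation like that of rheumatoid arthritis, and was not irradiated. The CIA+THz group had the same arthritis and was irradiated at 0.1 THz for 30 min on each of 14 days, a local exposure of the ankles, so that the blood was sampled away from the exposed site. In the paper, these mice were under isoflurane anaesthesia during the irradiation, and no anaesthesia of the other groups is described. Irradiation and anaesthesia thus cannot be told apart in any comparison with CIA+THz. The libraries of a group were separate mice.

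The common gamma chain, encoded by Il2rg, is a receptor subunit that the receptors for IL-2, IL-4, IL-7, IL-9, IL-15 and IL-21 share. Each of these receptors adds a chain of its own, such as IL-7Rα (Il7r) or IL-4Rα (Il4ra), while IL-2 and IL-15 also share the β chain Il2rb. Binding of the cytokine activates JAK1 and JAK3, the latter held by the common gamma chain, and these kinases activate STAT transcription factors that sustain survival, proliferation and differentiation of lymphocytes. IL-7 maintains naive and memory T cells, IL-15 maintains NK cells and memory CD8+ T cells, and IL-21, made by activated CD4+ T cells, acts on B cells and T cells.

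Il7r was the member with the clearest difference among the groups, and the sequence before its start is therefore shown. It is the 250 bases before the RefSeq transcript start on the minus strand (GRCm38.p6, chr15:9529877-9530126), written 5′ to 3′ from RefSeq. The capitals mark the only match to TTCNNNGAA, the spaced palindrome that STAT factors recognise, read on both strands, and the match begins 142 bases before the start.

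Il7r: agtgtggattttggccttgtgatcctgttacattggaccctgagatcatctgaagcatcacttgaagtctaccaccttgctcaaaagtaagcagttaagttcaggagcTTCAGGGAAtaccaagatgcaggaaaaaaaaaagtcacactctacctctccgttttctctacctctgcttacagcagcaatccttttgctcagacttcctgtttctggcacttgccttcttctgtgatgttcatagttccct

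The last 4 letters of this match are also a match to GGAA, the core that Ets factors recognise. In GENCODE, both protein-coding Il7r transcripts begin after the end of this window, and 86 of its bases, at the end farthest from the start, lie in an exon of the noncoding transcript Il7r-203. Upstream windows of 250 bases were matched by symbol for 8 of the 10 members (9 windows, since Il15ra has a pair of them). TTCNNNGAA was found in 1 of the 9 windows, against 7.02% of all 32851 mouse windows of that length. TGTGGT, the core that Runx factors recognise, was found in the windows of Il2rg, Il21r and Il9r, against 14.0% of all windows, and GGAA was found in 7 of the 9, against 93.4% of all. These matches describe letters, and no binding was measured.

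The expression values were deposited as FPKM, the fragments of a gene relative to the length of its transcript and to all mapped fragments of that library, and were rescaled here with 1 factor per library, between 0.847 and 1.24. FPKM holds no counts, but the steps between low values gave the depth of each library relative to Ctrl replicate 1. It was between 1 and 1.10 in the Ctrl libraries, between 1.01 and 1.28 in the CIA libraries and between 1.35 and 1.87 in the CIA+THz libraries, which were thus all deeper than the other 6. Every log2 change below was taken on log2(rescaled FPKM + 0.1), a scale that shrinks the changes of genes near 0. Each library also held RNA of red cell precursors, so the samples were not leukocyte RNA alone. The 5 listed genes (of 6) summed to 69068.5 to 103591 rescaled FPKM in Ctrl, 87101 to 97815.5 in CIA and 47420 to 65411 in CIA+THz. Nearly all of each sum was Alas2. The CIA+THz sums were thus below those of both other groups, and the part of this difference in the comparisons with CIA+THz was not tested.

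Per transcript length, Il2rg was the most abundant member, at a mean of 240.1 rescaled FPKM over the 9 libraries. Il4ra and Il2rb came next at 92.5 and 88.4, with library values that overlapped. Il7r followed at 48.0, Jak3 at 19.5 and Il21r at 9.68. Il15ra and Il15 were low, at 3.51 and 2.58, and overlapped each other. Il9r and Il21 were near 0, under the filter of a mean of 0.1, so that 8 of the 10 members were tested.

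**Figure D1:**
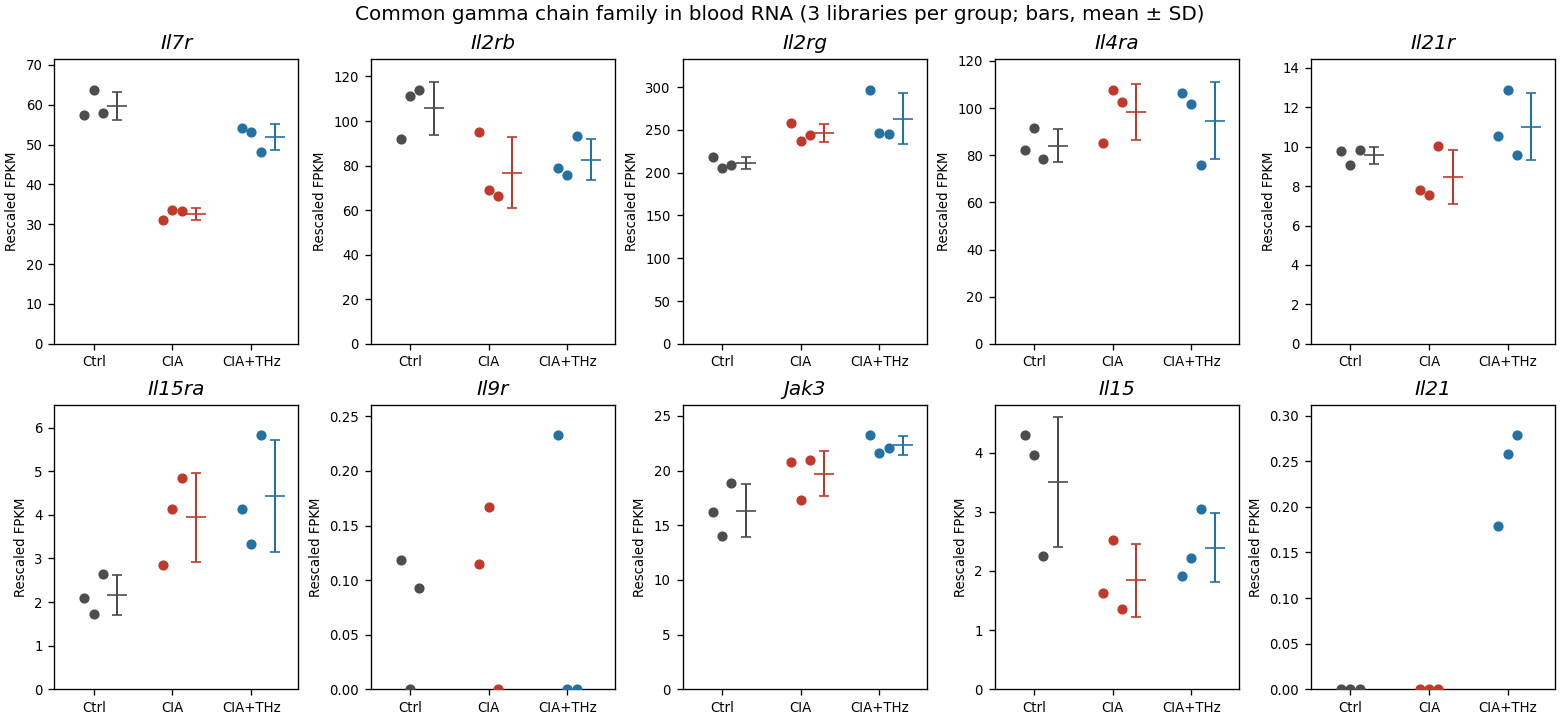
Rescaled FPKM (vertical axis, linear, from 0) of each of the 10 members in the 3 Ctrl, 3 CIA and 3 CIA+THz libraries (points), with the mean and SD of each group beside the points except for Il9r and Il21, which have libraries at 0. Il7r is the only panel in which all 3 groups are apart, with CIA lowest, and Il21 is above 0 in CIA+THz alone.

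Across the 3 groups, 5 of the 8 members tested (Il7r, Il2rb, Il2rg, Il15ra and Jak3) passed limma's F-test at an unadjusted p under 0.05, against 21.3% of all 12366 genes tested. Il7r alone had a Benjamini-Hochberg adjusted p under 0.05 (0.010 by limma), against 2.53% of all genes. The count of 5 was 2 without the trend term of the fit 1 without Ctrl replicate 2, and 3 without Ctrl replicate 1, CIA replicate 3, CIA+THz replicate 1 or CIA+THz replicate 2. In a pair of groups, a gene was called when its unadjusted p was under 0.05 and its absolute log2 change was above 0.67. In bulk RNA, fewer cells of a type, less RNA per cell and more RNA of other cells cannot be told apart. This holds for every difference below. The paper counted more lymphocytes, neutrophils, monocytes and total white cells in the blood of CIA mice than of Ctrl mice. It counted a smaller rise in CIA+THz mice. FPKM gives shares of the RNA and not such counts.

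Il7r (chromosome 15 of GRCm38, 9505788 to 9530176, minus strand) encodes the α chain of the IL-7 receptor, carried by naive and memory T cells. Its level was 57.5, 63.8 and 57.8 rescaled FPKM in the Ctrl libraries, 31.0, 33.5 and 33.4 in the CIA libraries, and 54.3, 53.1 and 48.1 in the CIA+THz libraries. On this scale the 3 groups did not overlap: every CIA library was below every other, and every CIA+THz library lay between the CIA and the Ctrl libraries. With the FPKM as deposited, the CIA libraries were again below all others (28.2 to 33.1), while CIA+THz (52.8 to 67.3) overlapped Ctrl (52.8 to 61.1). The CIA mean was 54.6% of the Ctrl mean, and the CIA+THz mean was 86.8% of it.

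Il7r fell in CIA against Ctrl by 0.87 on the log2 scale (SE 0.11, adjusted p = 0.046 by limma with Benjamini-Hochberg adjustment). In CIA+THz against CIA it was higher by 0.666 (SE 0.09), just under the 0.67 required, so that it was not called, with an adjusted p of 0.17 by limma. It met both limits with the FPKM as deposited (0.94) and without CIA replicate 2 (0.68), CIA replicate 3 (0.68) or CIA+THz replicate 3 (0.72). The CIA+THz libraries differed from Ctrl by -0.20 (SE 0.10, adjusted p = 0.33 by limma), which turned to 0.10 with the FPKM as deposited, so that no direction is given for that pair. Both comparisons with CIA share its 3 libraries, so a low value there enters each of them with opposite sign.

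The T cell markers moved with Il7r. Of 12 T cell genes (such as Cd3e, Cd28 and Tcf7), 12 were lower in CIA than in Ctrl, with a median log2 difference of -0.32, and in CIA+THz against CIA the log2 differences of all 12 were positive, with a median of 0.35. Their summed level was 424 to 478 rescaled FPKM in Ctrl, 341 to 367 in CIA and 432 to 569 in CIA+THz, with no marker at 0 in any library. Set against the mean log2 level of these 12 genes in the same library, a difference that the rescaling leaves nearly unchanged, Il7r was 0.83 to 1.05 above the list in Ctrl, 0.36 to 0.57 in CIA and 0.65 to 0.79 in CIA+THz. These ranges did not overlap either, so Il7r was lower in CIA relative to the mean of the T cell list as well. Within the list, the log2 differences of CIA against Ctrl ran from -1.19 (Cd28) to -0.11 (Cd3d). Cd28 thus fell further than Il7r. The part of T cell number in the Il7r result was not tested beyond this difference. Other cell types moved the other way between CIA+THz and CIA. All 12 listed neutrophil genes and all 7 listed platelet genes were lower in CIA+THz, with medians of -0.53 and -0.47. The part of these shifts in the Il7r result was not tested either.

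**Figure D2:**
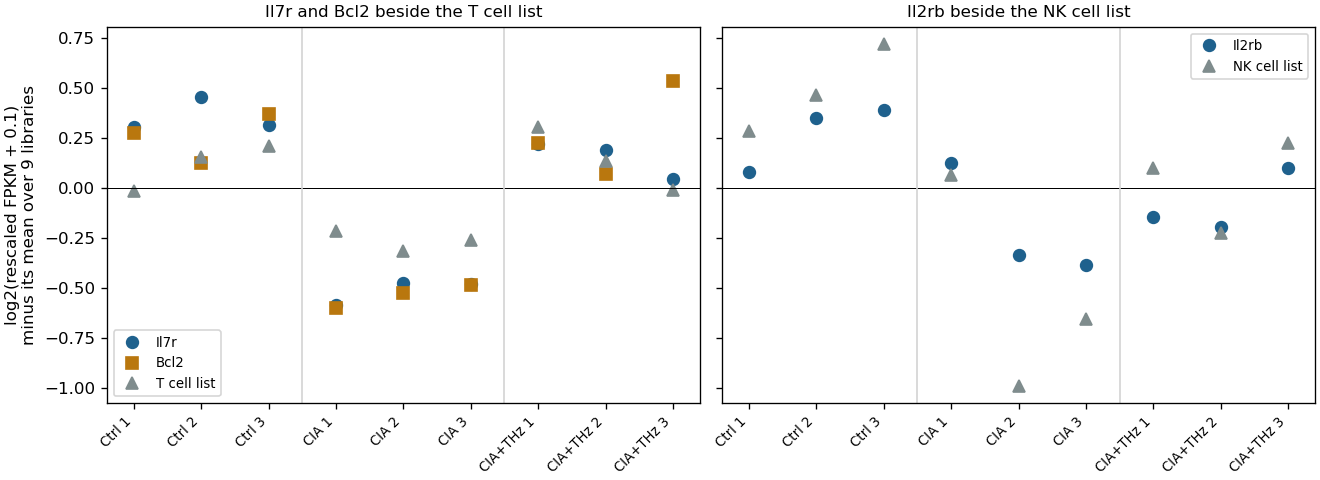
log2(rescaled FPKM + 0.1) minus its own mean over the 9 libraries (vertical axis) for each library (horizontal axis), with Il7r, Bcl2 and the mean of 12 T cell genes on the left and Il2rb and the mean of 9 NK cell genes on the right. Il7r and Bcl2 lie below the T cell list in all 3 CIA libraries, while Il2rb lies above the NK cell list there.

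The share of Il7r relative to Il2rg, its receptor partner, was taken from the deposited FPKM and does not depend on any scaling of a library. Il7r stood at 26.3%, 31.0% and 27.7% of the Il2rg FPKM in the Ctrl libraries, 12.01%, 14.1% and 13.7% in the CIA libraries and 18.3%, 21.6% and 19.6% in the CIA+THz libraries. The 3 groups were apart, with CIA lowest and CIA+THz between. This ratio, chosen after its values were seen, takes in both the lower Il7r and the higher Il2rg of the CIA libraries.

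Il2rg (chromosome X, 101264378 to 101268255, minus strand), the shared chain itself, was at 218.8, 205.6 and 208.5 rescaled FPKM in Ctrl, 257.8, 237.0 and 244.4 in CIA, and 297.1, 246.1 and 245.3 in CIA+THz. Every arthritic library, irradiated or not, was above every Ctrl library, and the CIA and CIA+THz libraries overlapped. With the FPKM as deposited, every CIA+THz library (269 to 368) was above every CIA library (230 to 242). The log2 difference was 0.22 (SE 0.10, adjusted p = 0.31 by limma) for CIA against Ctrl, 0.09 (SE 0.11, adjusted p = 0.75) for CIA+THz against CIA and 0.31 (SE 0.11, adjusted p = 0.21) for CIA+THz against Ctrl, none of them called. The 10 monocyte genes were also higher in CIA than in Ctrl, 10 of 10 with a median of 0.96. In CIA+THz against Ctrl, 8 of the 10 were higher, with a median of 0.64. In CIA+THz against CIA, 9 of the 10 were lower, with a median of -0.35. The list summed to 3128 to 3459 rescaled FPKM in Ctrl, 5377 to 5969 in CIA and 3596 to 3880 in CIA+THz, with no marker at 0. Most of each sum was Lyz2 (2529 to 2812 in Ctrl, 4436 to 4916 in CIA and 2851 to 3078 in CIA+THz). The 10 B cell genes were higher in 8 of 10 cases in CIA against Ctrl, with a median of 0.25, and in 10 of 10 in CIA+THz against Ctrl, with a median of 0.55. They summed to 483 to 575 rescaled FPKM in Ctrl, 531 to 676 in CIA and 626 to 815 in CIA+THz, with no marker at 0. The part of either cell type in the level of Il2rg, which lymphocytes and myeloid cells both express, was not tested.

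Il2rb (chromosome 15, 78479256 to 78495271, minus strand), the signalling chain that IL-2 and IL-15 share and that NK cells carry at high level, was at 92.1, 111.0 and 114.2 rescaled FPKM in Ctrl, 95.0, 68.9 and 66.6 in CIA, and 78.7, 76.0 and 93.4 in CIA+THz. CIA replicate 1 and CIA+THz replicate 3 reached into the Ctrl range, so the groups overlapped. With the FPKM as deposited, every CIA+THz library (86.8 to 102.6) was above every CIA library (66.0 to 86.4), and both groups overlapped Ctrl. The log2 difference of -0.47 (SE 0.17, adjusted p = 0.23 by limma) in CIA against Ctrl was under the fold required, and that of CIA+THz against CIA was 0.12 (SE 0.16, adjusted p = 0.78). That of CIA+THz against Ctrl was -0.35 (SE 0.13, adjusted p = 0.21 by limma), not called, and -0.05 with the FPKM as deposited. The NK cell genes moved in the same direction and further: 8 of 9 were lower in CIA than in Ctrl, with a median of -0.97, and 8 of 9 had positive log2 differences between CIA+THz and CIA, with a median of 0.51.

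The summed level of the 9 NK cell genes was 165 to 215 rescaled FPKM in Ctrl, 69.7 to 146 in CIA and 113 to 170 in CIA+THz, with no marker at 0. Most of each sum was Gzma and Prf1. Within a library, Il2rb was 3.40 to 3.62 above the mean log2 level of the NK cell list in Ctrl, 3.79 to 4.39 above it in CIA and 3.49 to 3.76 above it in CIA+THz. Relative to the mean of the NK cell list Il2rb was thus higher in CIA than in Ctrl, the opposite direction to its own level. That mean was lowered in CIA by Klre1, which was near the floor in CIA replicates 2 and 3 (0.199 and 0.246 rescaled FPKM). Klre1 had the lowest log2 difference of the list in CIA against Ctrl, -2.90. The part of NK cell number in the Il2rb level was not tested.

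Il15ra (chromosome 2, 11705290 to 11734317, plus strand) encodes the high-affinity chain with which one cell presents IL-15 to another. It was at 2.09, 1.73 and 2.64 rescaled FPKM in Ctrl, 2.84, 4.14 and 4.84 in CIA, and 4.13, 3.33 and 5.83 in CIA+THz. On this scale every arthritic library was above every Ctrl library, while CIA and CIA+THz overlapped. With the FPKM as deposited, CIA replicate 1 (2.58) was below Ctrl replicate 3 (2.79), so CIA and Ctrl overlapped.

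Il15 (chromosome 8, 82331632 to 82403222, minus strand), the ligand, was at 4.30, 3.96 and 2.25 rescaled FPKM in Ctrl, 1.63, 2.52 and 1.36 in CIA, and 1.91, 2.23 and 3.04 in CIA+THz. Ctrl replicate 3 was inside the CIA range, so the groups overlapped. Both genes were called in CIA against Ctrl, in opposite directions.

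Il15ra rose by 0.83 on the log2 scale (SE 0.31, adjusted p = 0.24 by limma with Benjamini-Hochberg adjustment), and Il15 fell by 0.89 (SE 0.37, adjusted p = 0.28). With Il7r, these made 1 member higher, against 4.79% of all genes called higher, and 2 members lower, against 4.25% called lower. The calls of Il15ra and Il15 rested on single libraries: that of Il15ra was lost without Ctrl replicate 1 or 2 or without CIA replicate 2 or 3, and that of Il15 without Ctrl replicate 1 or 2 or without CIA replicate 1 or 3. Without those libraries the log2 change of Il15ra was between 0.67 and 0.82 and that of Il15 between -0.83 and -0.71. Both calls were lost with a pseudocount of 1, at 0.64 for Il15ra and -0.66 for Il15, and that of Il15 was also lost with no filter on low values, at an unadjusted p of 0.060 by limma.

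In CIA+THz against CIA, neither gene was called, with log2 differences of 0.16 (SE 0.29, adjusted p = 0.85 by limma) for Il15ra and 0.38 (SE 0.32, adjusted p = 0.64) for Il15. In CIA+THz against Ctrl, Il15ra rose by 0.99 (SE 0.29, adjusted p = 0.16 by limma) and was the only member called, against 4.64% of all genes called higher and 3.24% called lower. Il15 was at -0.51 there (SE 0.32, adjusted p = 0.45 by limma).

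The ratio of Il15 to Il15ra, taken within a library from the deposited FPKM and chosen after its values were seen, was 2.06, 2.29 and 0.852 in Ctrl, 0.575, 0.609 and 0.281 in CIA, and 0.463, 0.668 and 0.522 in CIA+THz. Every Ctrl library was above every arthritic library, and CIA and CIA+THz overlapped. Set against the mean log2 level of the monocyte list, the log2 level of Il15ra was at -5.04 to -4.32 in Ctrl, -5.21 to -4.45 in CIA and -4.51 to -3.87 in CIA+THz, with all ranges overlapping. The part of monocytes in the Il15ra level was not tested beyond this difference.

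**Figure D3:**
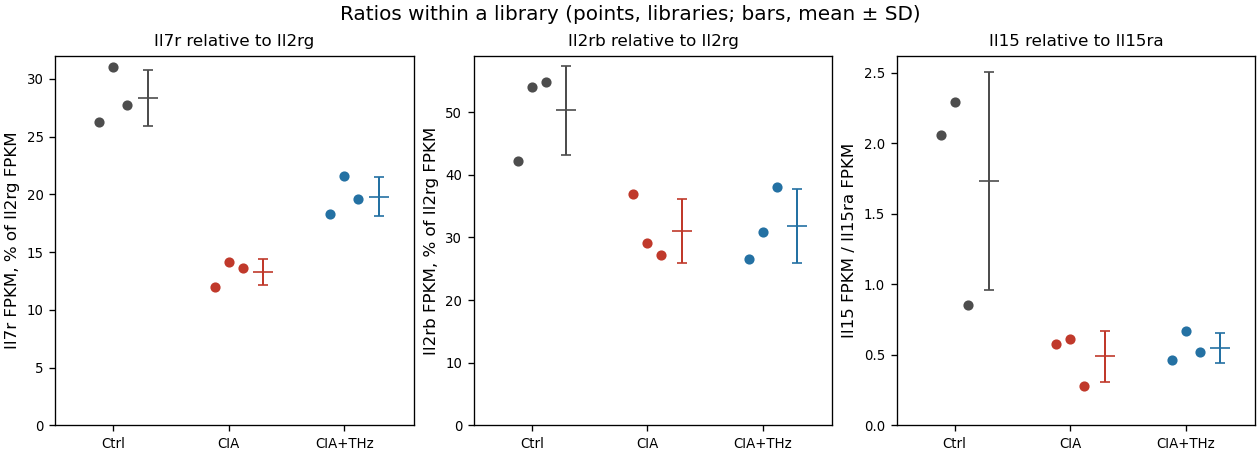
Ratios within a library, with points for the 3 libraries of each group and bars for the mean and SD: Il7r and Il2rb FPKM as a percentage of Il2rg FPKM, and Il15 FPKM over Il15ra FPKM (vertical axes, linear, from 0). Il7r relative to Il2rg separates all 3 groups, while the other ratios drawn separate Ctrl from both arthritic groups. The ratios drawn were chosen after their values were seen. Those of Il4ra, Il21r, Il15ra and Jak3 to Il2rg, not drawn, did not separate Ctrl from both arthritic groups. The Il2rb ratio takes in the higher Il2rg of the arthritic groups.

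Il4ra and Il21r lie next to each other on chromosome 7 (125552120 to 125579474 and 125603429 to 125633570, both on the plus strand), 23954 bases apart with no annotated gene between. Il4ra, the chain that binds IL-4 and also serves the IL-13 receptor, was at 82.1, 91.7 and 78.5 rescaled FPKM in Ctrl, 85.1, 107.9 and 102.6 in CIA, and 106.4, 101.6 and 76.0 in CIA+THz. Il21r, the receptor chain for IL-21, was at 9.77, 9.08 and 9.83 in Ctrl, 7.80, 7.56 and 10.03 in CIA, and 10.6, 12.9 and 9.57 in CIA+THz. Both genes overlapped among all groups and neither was called in any pair. The largest of their 6 log2 differences was that of Il21r in CIA+THz against CIA, 0.38 (SE 0.18, adjusted p = 0.42 by limma).

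Jak3 (chromosome 8, 71676296 to 71690575, plus strand), the kinase bound to the common gamma chain, was at 16.2, 14.0 and 18.9 rescaled FPKM in Ctrl, 20.8, 17.3 and 21.0 in CIA, and 23.3, 21.6 and 22.0 in CIA+THz. The CIA+THz libraries were above all 6 others, and Ctrl and CIA overlapped. The log2 difference was 0.27 (SE 0.16, adjusted p = 0.42 by limma) for CIA against Ctrl, 0.18 (SE 0.11, adjusted p = 0.52) for CIA+THz against CIA and 0.46 (SE 0.14, adjusted p = 0.16) for CIA+THz against Ctrl, none called. With the FPKM as deposited the last of these was 0.76 and was called, since the rescaling lowered CIA+THz against both other groups. The B cell sums given beside Il2rg and the T cell sums given beside Il7r had their highest values in CIA+THz. The B cell sums there overlapped those of CIA, and the T cell sums overlapped those of Ctrl. The part of either cell type in the Jak3 level was not tested.

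Over the 8 members tested, 4 were higher and 4 lower in CIA than in Ctrl, with a median log2 change of 0.02 against -0.01 over all genes. Between CIA+THz and CIA, 7 had the higher mean in CIA+THz and Il4ra the lower one, with a median of 0.17 against 0.03 over all genes. None of the 8 was called there, against 2.94% of all genes called higher and 1.6% called lower, and 1 (Il7r) had an unadjusted p under 0.05 by limma. No gene of the 12366 passed the adjustment in that comparison. With the FPKM as deposited, where all genes shifted to a median of 0.29, all 8 members were higher (Il4ra by 0.21), the members' median was 0.45 and Il7r was called.

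**Figure D4:**
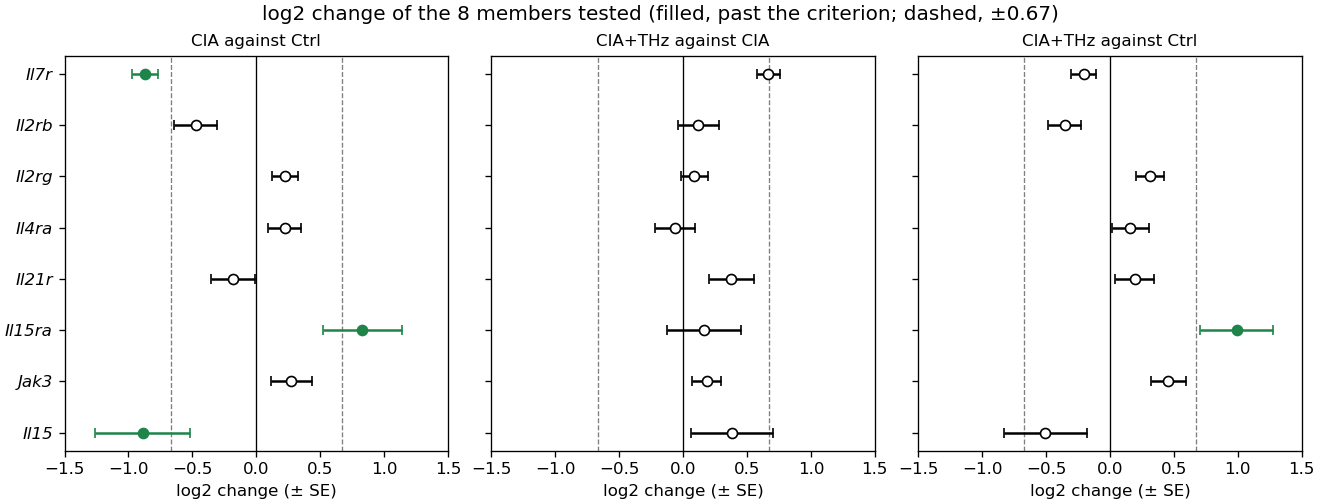
log2 change (horizontal axis) with its SE for the 8 members tested in CIA against Ctrl, CIA+THz against CIA and CIA+THz against Ctrl, where filled points passed the criterion and dashed lines mark ±0.67. In the middle panel Il7r sits at the dashed line, at 0.666, and no member is filled.

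Il21 (chromosome 3, 37222759 to 37232636, minus strand), the cytokine of activated CD4+ T cells, was listed at 0 in every Ctrl library and every CIA library, 6 in all, and at 0.179, 0.258 and 0.279 rescaled FPKM in the CIA+THz libraries. It was under the filter and not tested, and no fold is given against groups at 0. Multiplied by relative depth, its deposited FPKM was 0.414, 0.413 and 0.414 in the CIA+THz libraries, a range of 0.31%. The 3 libraries thus held the same number of Il21 fragments within that tolerance, and the number itself is not determined by FPKM. Those 3 libraries were also the deepest of the 9, so that depth and irradiation, with its anaesthesia, cannot be told apart for a gene at this level.

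Il9r (chromosome 11, 32187541 to 32200279, minus strand), the IL-9 receptor chain of mast cells and some T cells, was at 0.119, 0 and 0.0927 rescaled FPKM in Ctrl, 0.115, 0.167 and 0 in CIA, and 0.233, 0 and 0 in CIA+THz. It was listed at 0 in 4 of the 9 libraries, at least 1 in each group, and the groups overlapped. Scaled by depth, the values above 0 stood at 1, 1.01, 1.01, 1.52 and 5.02 times the lowest of them, the last in CIA+THz replicate 1, the deepest library.

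**Figure D5:**
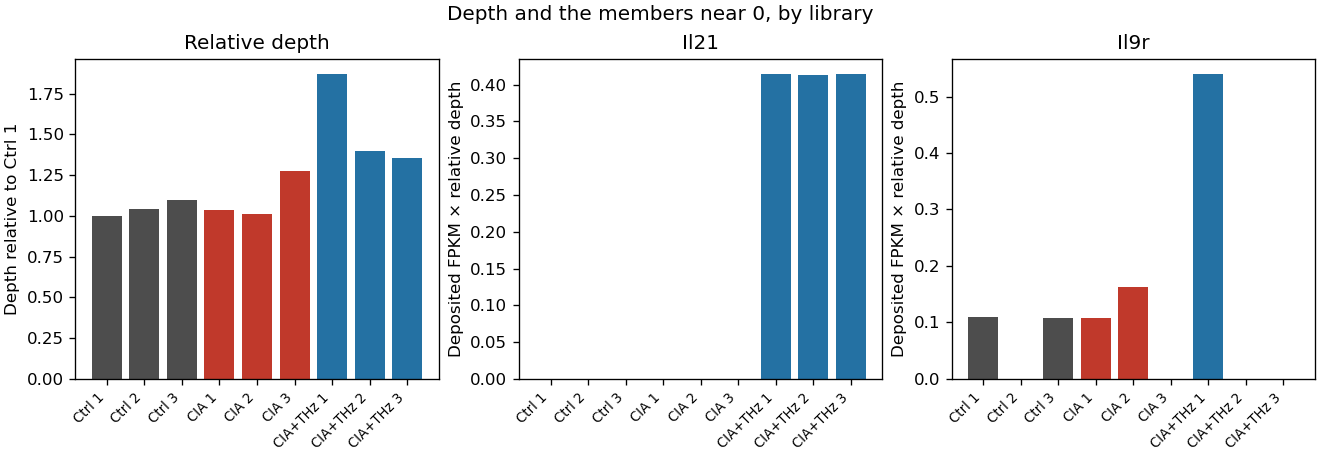
Depth of each library relative to Ctrl replicate 1 (left), and the deposited FPKM multiplied by that depth for Il21 (middle) and Il9r (right), with 1 bar per library and linear axes from 0. The Il21 bars are level at 0.413 to 0.414 in the 3 CIA+THz libraries and absent in the other 6.

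Other genes of the system and some genes only linked to it, such as Il13, were taken as 3 lists. Among 9 further ligands and receptor chains, Il2, Il4, Il9 and Il13 were not tested: Il2 and Il9 were listed at 0 in all 9 libraries, Il4 was above 0 in CIA+THz replicate 1 alone (0.0815 rescaled FPKM) and Il13 in CIA replicates 1 and 2 alone (0.549 and 0.189). None of the 5 tested was called in any pair. The second list held 6 signalling genes, kinase and transcription factor genes downstream of the receptors. None of the 6 was called in CIA+THz against CIA, and their median log2 difference was -0.13 against 0.03 over all genes.

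Of 9 target and feedback genes, Socs1, an inhibitor of JAK kinases, rose in CIA against Ctrl by 1.03 (SE 0.35, adjusted p = 0.21 by limma) and in CIA+THz against Ctrl by 0.90 (SE 0.36, adjusted p = 0.25). Bcl2, the survival gene that IL-7 sustains in T cells, was at 114.9, 103.4 and 122.7 rescaled FPKM in Ctrl, 62.6, 65.9 and 67.7 in CIA, and 111.1, 99.7 and 137.3 in CIA+THz. Every CIA library was below all 6 others, and Ctrl and CIA+THz overlapped. Bcl2 fell in CIA against Ctrl by 0.79 (SE 0.11, adjusted p = 0.051 by limma) and rose in CIA+THz against CIA by 0.81 (SE 0.13, adjusted p = 0.17), with an adjusted p of 0.017 by limma across the 3 groups.

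Bcl2 was also lower in CIA relative to the T cell list. Within a library it was 1.73 to 2.05 above the mean log2 level of the list in Ctrl, 1.37 to 1.55 in CIA and 1.68 to 2.30 in CIA+THz. The CIA range overlapped neither of the others. The difference between Il7r and Bcl2 within a library was -1.08 to -0.70 in Ctrl, -1.02 to -0.98 in CIA and -1.51 to -0.91 in CIA+THz, with all 3 ranges overlapping. The other target genes, Cish, Socs2, Socs3, Mcl1, Pim1, Pim2 and Myc, were not called in any pair.

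The genes whose pattern over the 9 libraries was most like that of a member were found by the root mean square difference of centred log2 values, over 9747 genes with a mean of at least 1. For Il7r these were Dmxl1 (0.13), Senp7 (0.13) and Rfx7 (0.14), against a median of 0.49 over all genes compared. For Il2rb they included Rraga and Ccdc167 (0.10 for each), and for Il2rg they were Cs, Tpp1 and Thap11 (0.083 to 0.094). For Il4ra they were Ppcdc, Wdr6 and Hsdl1 (0.086 to 0.098), for Il21r Usp38, Zmiz1 and Ptbp1 (0.098 to 0.11), and for Jak3 Mbd1, Plagl2 and Heatr1 (0.077 to 0.087). The low genes had no neighbour as near: Depdc5, Ctnnd1 and Foxp3 for Il15ra (0.17 to 0.19) and Ifi214, Tnik and Acer2 for Il15 (0.19 to 0.22). No member was among the nearest genes of another member.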

How the data were processed

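The authors deposited 1 table of FPKM values, with 1 column for each of the 9 blood libraries. The submitters' processing notes name bcl2fastq 2.0, HISAT2, StringTie and DESeq2 and the build mm10, and the annotation, strand setting and filters are not given in the sources used here. Each library was rescaled with its median ratio to the geometric means of the 10312 genes that no library listed at 0. Genes whose rescaled FPKM averaged 0.1 or more (12366) were fitted as log2(rescaled FPKM + 0.1) with limma 3.58.1 in R 4.3.3 (lmFit, eBayes with a trend), on 9 libraries for the 3 groups and on 6 for each pair, and adjusted by Benjamini-Hochberg over all genes tested. The fit was tested on simulated data. Relative depth was taken from the steps between values under 0.5 FPKM. It gives no count of fragments, so no counting interval is given.

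The members and the lists were chosen with earlier results of these data known. Named were the 10 members, the called or untested genes of the pathway lists, and the 3 nearest patterns of each member with a mean of at least 1; some genes that this rule names are not reported here. Positions are from GENCODE M21 (GRCm38), matched by symbol, and promoters from RefSeq (GRCm38.p6). Replicate numbers named the mice and paired none.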

Additional observations from a re-analysis of the deposited data

How the results depend on the processing

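The count of 5 members across the 3 groups was 2 with no trend, 3 with the replicate number as a block, 1 with Benjamini-Hochberg adjusted p, and 1 to 5 when a library was left out. In CIA against Ctrl the count of 3 was 1 with a pseudocount of 1, 1 with the adjusted p, and 1 to 3 when a library was left out; the median log2 change of 0.02 was then between -0.060 and 0.029, turning to -0.060 without CIA replicate 3. In CIA+THz against CIA the count of 0 was 1 with FPKM as deposited and 1 with no filter on low values (Il21, which is listed at 0 in every library of the groups it is set against), and 0 to 1 when a library was left out, while the median of 0.17 was 0.45 with FPKM as deposited and 0.15 to 0.25 when a library was left out. In CIA+THz against Ctrl the count of 1 was 2 with FPKM as deposited, 2 with no filter and 0 with the adjusted p, and 1 to 2 when a library was left out, while the median of 0.18 was 0.48 as deposited and 0.086 to 0.30 when a library was left out. For log2 changes of single members, 288 alternatives kept direction and call, 11 lost a call, 6 gained one, and 7 turned the direction of a change that was not called. With FPKM as deposited, Il7r in CIA+THz against Ctrl turned from -0.20 to 0.10 and Il4ra in CIA+THz against CIA from -0.07 to 0.21. When a library was left out of CIA+THz against CIA, Il4ra ranged from -0.17 to 0.085 (0.0036 without CIA replicate 2 and 0.085 without CIA+THz replicate 3), Il15ra from -0.053 to 0.34 (-0.053 without CIA replicate 1 and -0.052 without CIA+THz replicate 3), and Il2rg from -0.0029 to 0.14 (-0.0029 without CIA+THz replicate 1). Same-numbered libraries did not deviate together (correlations across genes of -0.05 to 0.03), so the numbers pair no mice and the block is only a check. The causes were not tested. FPKM gives no fragment counts, which limits what can be said of Il21 and Il9r.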
